A study of Homo sapiens with 12 samples.

Results

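TGFB1, the main ligand of transforming growth factor beta (TGF-beta), and 8 genes that are known targets of TGF-beta or of the coactivator YAP were followed in human liver spheroids exposed to total parenteral nutrition (TPN). The members were taken by gene symbol, namely TGFB1, TGFBI, TGIF1, SKIL, THBS1, ANKRD1, CCN1, CCN2 and AMOTL2, and all 9 were found among the 16705 genes of the deposited table. After 144 h of TPN, TGFB1 and TGIF1 were higher than in untreated spheroids, TGFBI, ANKRD1, CCN1 and AMOTL2 were lower, and SKIL, THBS1 and CCN2 differed by less than the fold threshold. After 24 h, ANKRD1 and SKIL were the members that passed the thresholds, and both were lower.

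RNA was measured in 12 libraries, 3 replicates in each of 4 groups: spheroids exposed to 1% TPN for 24 h or for 144 h, and untreated spheroids of the same 2 times. Every group was a co-culture of HepG2/C3A cells, a clone of the hepatoma line HepG2 used as a hepatocyte model, with LX-2 cells, an immortalized line of activated hepatic stellate cells, kept in the same serum-containing medium. TPN is a nutrient mixture given into a vein, made of amino acids, glucose, lipids, electrolytes, vitamins and trace elements, and the untreated spheroids of each time received none. Each library pooled spheroids of 2 cell lines, so a level is an average over C3A and LX-2 cells. Values are FPKM, fragments scaled to the length of the transcript and to the number of fragments mapped in the library, as computed by the authors. Low FPKM steps gave an estimated depth of 1.81e+07 to 1.90e+07 fragments per library, and between 10936 and 11074 genes reached 1 FPKM. No library stood apart from its group in these totals. The p-values of the linear model (limma) rest on the spread between replicate libraries within groups, pooled over the 4 groups. That spread was moderated across all genes tested.

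TGF-beta is secreted as a latent complex that must be activated before it binds its receptors, which phosphorylate SMAD2 and SMAD3. These enter the nucleus with SMAD4 and switch target genes on or off, and the target genes include brakes on the pathway such as SMAD7 and SKIL. YAP and its relative TAZ (gene WWTR1) are held in the cytoplasm by the Hippo kinases LATS1 and LATS2 and, when released, act with TEAD transcription factors on genes such as CCN1, CCN2, ANKRD1 and AMOTL2. In the liver, TGF-beta is known for driving stellate cells to make matrix, and CCN2 is a matrix protein gene that both pathways are known to use.

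In the GENCODE v44 annotation of GRCh38, TGFB1 lies on chromosome 19 from 41301587 to 41353922 (minus strand), TGFBI on chromosome 5 from 136028988 to 136063818 (plus strand), TGIF1 on chromosome 18 from 3411608 to 3459978 (plus strand), SKIL on chromosome 3 from 170357342 to 170396835 (plus strand) and THBS1 on chromosome 15 from 39581079 to 39599466 (plus strand). ANKRD1 lies on chromosome 10 from 90912096 to 90921087 (minus strand), CCN1 on chromosome 1 from 85580761 to 85584589 (plus strand), CCN2 on chromosome 6 from 131948176 to 131951372 (minus strand) and AMOTL2 on chromosome 3 from 134355347 to 134375479 (minus strand). All 9 are protein-coding genes, and a value covers the exons of all transcripts that the authors placed under a gene. For ANKRD1, CCN2 and AMOTL2 the deposited table gives the plus strand and spans of 1252319, 140733 and 27737 bases, so transcripts outside these genes may have been counted with them. TGFB1 overlaps HNRNPUL1, CCDC97 and TMEM91 on the opposite strand, THBS1 overlaps THBS1-AS1 and FSIP1, and CCN2 overlaps LINC01013. On the same strand TGFB1 overlaps a long non-coding RNA gene, THBS1 overlaps THBS1-IT1, and TGIF1 and AMOTL2 overlap the pseudogenes BOD1P1 and RPL39P5. These overlaps are with the GENCODE spans. For TGFB1 the deposited table gives a shorter span, from 41330323 to 41353922, so some of its overlaps may lie outside what was counted. The libraries were strand-specific, but whether the strand was used in counting is not given in the sources used here.

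Because 5 of the members (ANKRD1, CCN1, CCN2, AMOTL2 and THBS1) are known as YAP targets, the 250 bases upstream of the members' RefSeq start sites (GRCh38.p14) were searched for GGAATG, the core letters bound by TEAD factors, on both strands. Windows were held for 8 of the 9 members (15 windows in all, 7 of them of TGIF1 and 2 of AMOTL2). The letters occurred at least once in 11.9% of 35116 windows of all genes. CCN2 held them 3 times, with the first base 169, 104 and 95 bases upstream of the start, which 0.0826% of all windows reach. ANKRD1 held them 2 times, 220 and 128 bases upstream, which 0.94% of all windows reach. THBS1 held them at 46 bases and AMOTL2, in 1 of 2 windows, at 69 bases. The windows of TGFB1, TGFBI and SKIL held none, and 2 of 7 TGIF1 windows, which overlap each other, shared the same occurrence. The 4 windows are shown because they carry these letters upstream of the genes whose levels are compared below, with GGAATG or its reverse complement CATTCC in capitals, 5′ to 3′ on the strand of the gene.
CCN2, chr6:131951373-131951622, minus strand: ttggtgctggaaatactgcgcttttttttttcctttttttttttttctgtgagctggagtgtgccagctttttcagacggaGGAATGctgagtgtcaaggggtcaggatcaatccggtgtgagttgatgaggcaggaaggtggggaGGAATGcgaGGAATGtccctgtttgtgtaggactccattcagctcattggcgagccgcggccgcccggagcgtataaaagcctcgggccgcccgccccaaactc
ANKRD1, chr10:90921088-90921337, minus strand: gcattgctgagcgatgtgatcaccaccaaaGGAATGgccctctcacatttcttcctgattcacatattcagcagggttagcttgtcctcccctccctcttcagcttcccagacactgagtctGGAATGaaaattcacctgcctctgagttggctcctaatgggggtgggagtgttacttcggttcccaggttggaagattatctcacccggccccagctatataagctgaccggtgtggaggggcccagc
THBS1, chr15:39580829-39581078, plus strand: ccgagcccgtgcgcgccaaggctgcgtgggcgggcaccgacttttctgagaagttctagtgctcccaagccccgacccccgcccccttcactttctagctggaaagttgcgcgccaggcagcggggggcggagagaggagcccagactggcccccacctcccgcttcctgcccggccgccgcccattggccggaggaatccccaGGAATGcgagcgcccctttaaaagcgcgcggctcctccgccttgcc
AMOTL2, chr3:134374448-134374697, minus strand: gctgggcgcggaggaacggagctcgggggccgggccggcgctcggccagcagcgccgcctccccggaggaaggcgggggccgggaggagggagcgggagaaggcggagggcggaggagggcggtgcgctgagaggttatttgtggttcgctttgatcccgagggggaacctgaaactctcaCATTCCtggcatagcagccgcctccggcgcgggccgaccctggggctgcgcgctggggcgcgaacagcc
The SMAD letters CAGACA, present in 13.6% of all windows, were found in 3 TGIF1 windows, in the ANKRD1 window 142 bases upstream and in the other AMOTL2 window 96 bases upstream. The AP-1 letters TGACTCA (4.2% of all windows) and the CArG box, the site of the actin-regulated factor SRF (1.16%), were in none of the 15 windows. These matches describe the letters in the windows and show no binding.

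The members covered a wide range of levels. Ordered by mean FPKM over the 12 libraries, TGFBI ranked 331 and CCN2 380 of 16705 genes, TGFB1 ranked 1893 and TGIF1 3285, and CCN1, THBS1, ANKRD1, AMOTL2 and SKIL ranked between 7252 and 8987. In the group where each was lowest, the values corresponded to about 7520 fragments per library for TGFBI and 5183 for CCN2, but to 365 for SKIL, 241 for AMOTL2, 201 for CCN1 and 80.8 for ANKRD1. All 9 passed the filter of a mean FPKM of at least 0.5 and were among the 11713 genes tested.

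**Figure D1:**
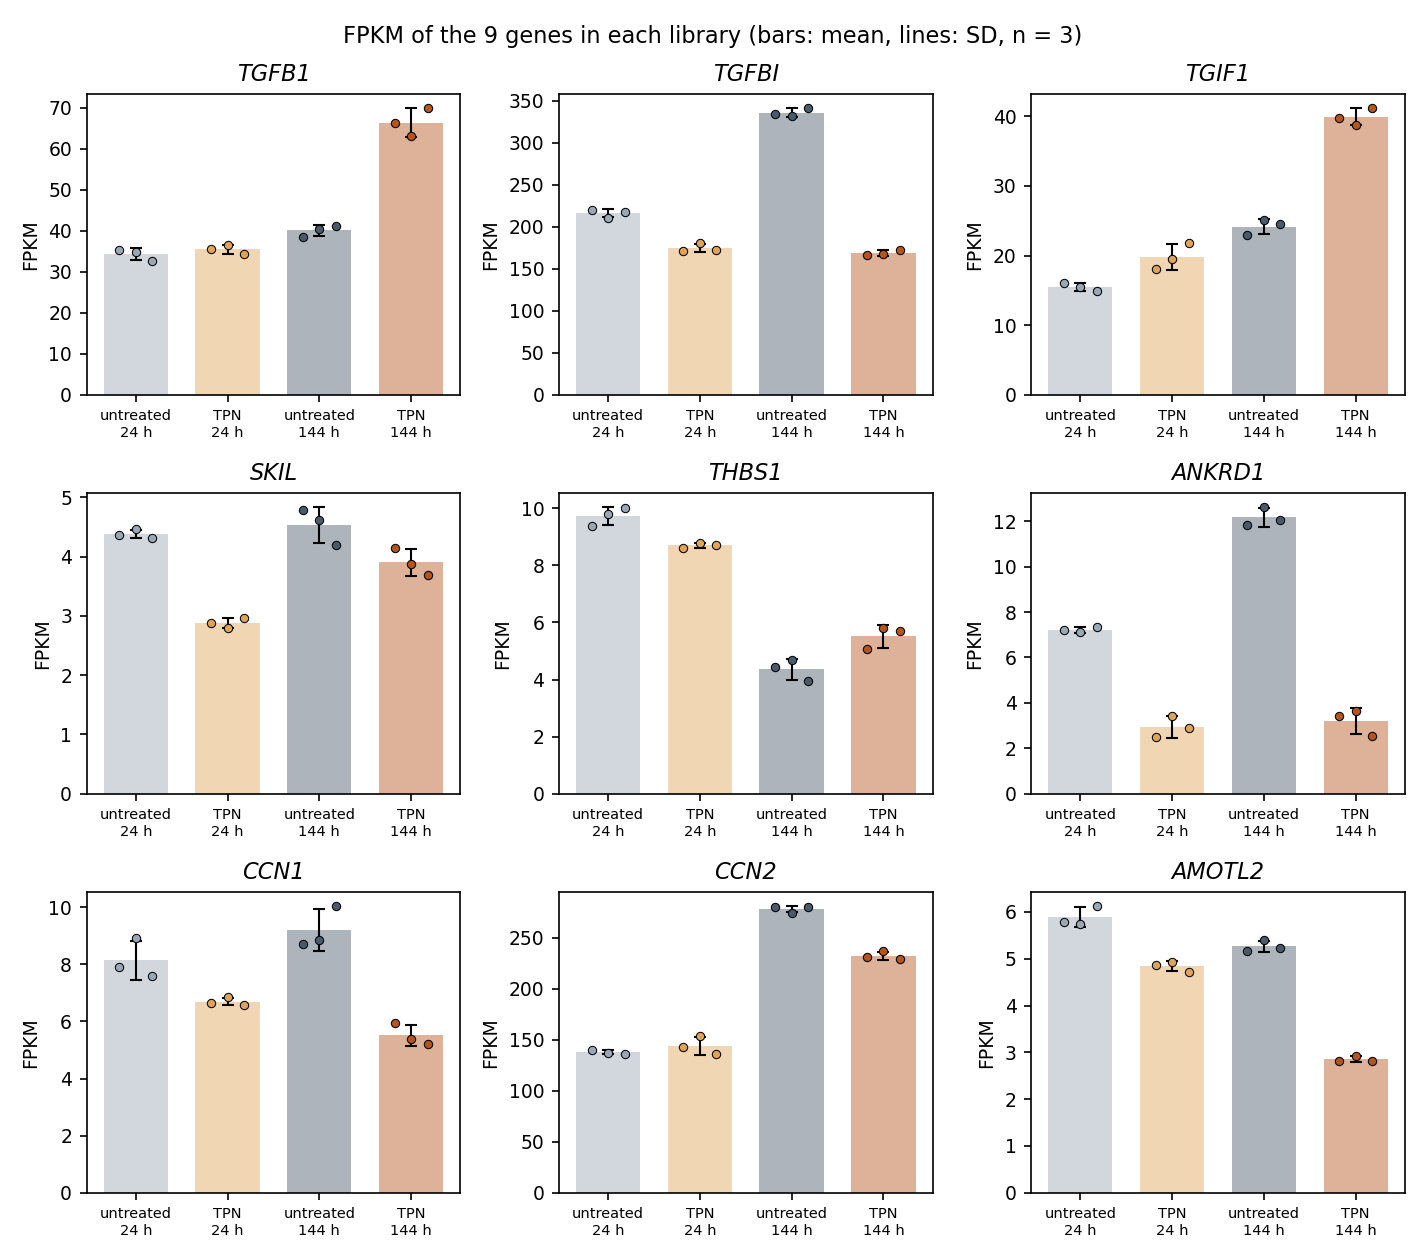
FPKM (vertical axes, starting at 0) of the 9 genes in the 4 groups, with 1 point per library, bars for the mean and lines for the SD (n = 3). TGFB1 in the 3 libraries of 144 h TPN sits between 63.0 and 69.9 FPKM, above the other 9 libraries, while ANKRD1 stays at 3.63 FPKM or less in every TPN library.

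A gene was called when its adjusted p was below 0.05 and its log2 fold change beyond 0.58 in either direction, thresholds taken from the study. At 24 h of TPN, 2 of the 9 members were called against untreated spheroids, 0 higher and 2 lower (1 and 6 at an unadjusted p under 0.05 by limma), where 0.914% of the 11713 genes were called (0.640% higher and 0.273% lower). At 144 h, 6 members were called, 2 higher and 4 lower, against 9.48% of all genes (5.75% higher and 3.73% lower). The members were chosen with earlier results of these data known. A share above that of all genes can come from this choice and is no test of the set. The 3 TPN libraries did not overlap the 3 untreated ones for 7 members at 24 h, as for 29.9% of all genes, and for all 9 members at 144 h, as for 57.3% of all genes. With adjusted p alone, 6 members passed at 24 h, 1 higher and 5 lower, against 10.5% of all genes (5.04% higher and 5.46% lower). At 144 h all 9 passed, 3 higher and 6 lower, against 52.5% (24.2% higher and 28.3% lower). SKIL missed this threshold at 144 h without untreated replicate 1 or 2 or TPN replicate 3 (adjusted p = 0.0798, 0.0557 and 0.0729), and CCN1 at 24 h in 5 of 6 fits that left out a 24 h library (adjusted p up to 0.116). The median log2 fold change of the members was -0.28 at 24 h and -0.26 at 144 h, and that of all genes tested was 0.00 and -0.02. Where groups did not overlap, the two-sided exact permutation test of 3 against 3 values gave p = 0.1, the smallest that 20 arrangements allow. In these bulk samples, fewer cells of a type and less RNA per cell cannot be told apart.

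**Figure D2:**
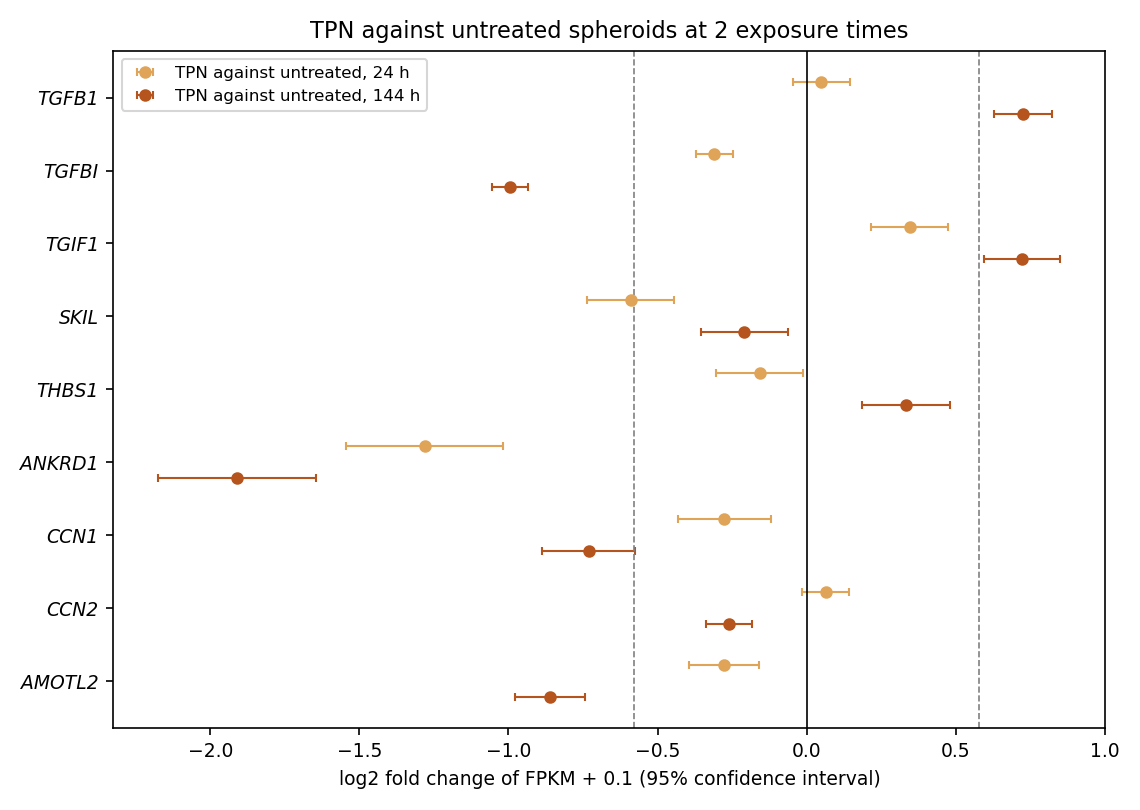
Log2 fold change of FPKM + 0.1 (horizontal axis) of each gene for TPN against untreated spheroids at 24 h and 144 h, with points for the estimate, lines for the 95% confidence interval and dashed lines at 0.58 in either direction. ANKRD1 is farthest from 0 at both times (-1.28 and -1.91), and TGFB1 and TGIF1 are beyond the upper dashed line at 144 h (0.73 and 0.72).

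TGFB1, the ligand, was at 35.4, 34.8 and 32.6 FPKM in untreated spheroids and at 35.5, 36.5 and 34.3 FPKM with TPN at 24 h. These ranges overlapped, with a log2 fold change of 0.05 and a 95% confidence interval from -0.05 to 0.15. At 144 h the untreated libraries held 38.6, 40.4 and 41.2 FPKM and the TPN libraries 66.1, 63.0 and 69.9 FPKM. Every TPN library was thus above every untreated one, by 1.65-fold (log2 fold change 0.73, SE 0.04, adjusted p = 1.80e-08). The level after 144 h of TPN, 66.4 ± 3.48 FPKM (SD, n = 3), was the highest of the 4 groups, and the untreated and TPN groups at 24 h did not differ beyond their spread.

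TGFBI, a secreted matrix protein that links collagen and integrins and is named for its induction by TGF-beta, moved the other way. At 24 h it was at 219.7, 210.9 and 217.9 FPKM in untreated spheroids and at 171.3, 180.1 and 172.0 FPKM with TPN. The TPN libraries were all lower, but the log2 fold change of -0.31 (adjusted p = 8.86e-06) did not reach the fold threshold. At 144 h the untreated libraries held 334.0, 332.0 and 341.6 FPKM and the TPN libraries 165.8, 167.8 and 172.2 FPKM. That is a 1.99-fold lower level with TPN (log2 fold change -0.99, SE 0.03, adjusted p = 1.02e-11). In order, the group means were 336 FPKM without TPN at 144 h, 216 FPKM without TPN at 24 h, and 174 and 169 FPKM after 24 h and 144 h of exposure, and the last pair did not pass the test (adjusted p = 0.127), although it did under 3 other scalings, with either sign.

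TGIF1 and SKIL encode co-repressors that dampen SMAD-driven transcription. TGIF1 was at 16.1, 15.6 and 14.9 FPKM in untreated spheroids and at 18.02, 19.54 and 21.79 FPKM with TPN at 24 h, a separation of the groups below the fold threshold (log2 fold change 0.35, adjusted p = 0.00201). At 144 h it was at 22.92, 25.03 and 24.52 FPKM without TPN and at 39.7, 38.8 and 41.2 FPKM with TPN. It rose 1.65-fold with TPN at that time (log2 fold change 0.72, SE 0.06, adjusted p = 3.27e-07), and the 4 groups followed each other without overlap, the 24 h groups first and the TPN group above the untreated one at each time. SKIL showed its larger difference early. At 24 h its untreated libraries held 4.37, 4.46 and 4.31 FPKM and its TPN libraries 2.88, 2.79 and 2.96 FPKM. It fell 1.51-fold (log2 fold change -0.59, SE 0.07, adjusted p = 7.50e-05), just past the fold threshold, and without untreated replicate 2 or TPN replicate 2 it was at -0.58 and -0.57 and no longer called. At 144 h SKIL was at 4.79, 4.61 and 4.19 FPKM without TPN and at 4.14, 3.88 and 3.69 FPKM with it, with the highest TPN library just below the lowest untreated one (log2 fold change -0.21, adjusted p = 0.0188).

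THBS1 encodes thrombospondin 1, a matrix protein known as an activator of latent TGF-beta and as a target of both pathways. With TPN at 24 h it was at 8.62, 8.79 and 8.72 FPKM, against 9.37, 9.81 and 10.00 FPKM in untreated spheroids, a difference of -0.16 on the log2 scale that did not pass the test (adjusted p = 0.174). At 144 h it was at 5.06, 5.79 and 5.70 FPKM with TPN and at 4.44, 4.69 and 3.95 FPKM without. All TPN libraries were then above the untreated ones, by 0.33 on the log2 scale (adjusted p = 9.70e-04), which is below the fold threshold.

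ANKRD1, a nuclear ankyrin repeat protein of muscle and injured tissue and a much used readout of YAP, had the largest differences of the members. At 24 h its untreated libraries held 7.21, 7.10 and 7.34 FPKM and its TPN libraries 2.48, 3.44 and 2.89 FPKM. It fell 2.43-fold (log2 fold change -1.28, SE 0.12, adjusted p = 1.31e-05), and 0.171% of the genes tested had a larger change in either direction. At 144 h untreated spheroids held 11.8, 12.6 and 12.1 FPKM and TPN-exposed spheroids 3.44, 3.63 and 2.53 FPKM. The level with TPN was 3.76-fold lower (log2 fold change -1.91, SE 0.12, adjusted p = 2.81e-08), and 0.444% of the genes tested changed more. The TPN groups of 24 h and 144 h, at 2.94 ± 0.482 and 3.20 ± 0.588 FPKM (SD, n = 3), had an adjusted p of 0.403, but of 0.0492 with median ratio scaling and 0.0286 without TPN 144 h replicate 3.

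CCN1 and CCN2 encode matricellular proteins of the same family, and CCN2 is also known as connective tissue growth factor. CCN1 was at 7.92, 8.91 and 7.59 FPKM in untreated spheroids and at 6.66, 6.84 and 6.58 FPKM with TPN at 24 h, a difference below the fold threshold (log2 fold change -0.28, adjusted p = 0.0266). At 144 h it was at 8.72, 8.87 and 10.05 FPKM without TPN and at 5.93, 5.39 and 5.21 FPKM with TPN. It fell 1.66-fold at that time (log2 fold change -0.73, SE 0.07, adjusted p = 1.88e-06). CCN2, whose level per length was far above that of CCN1, showed a smaller difference. Its untreated libraries held 139.8, 136.8 and 136.2 FPKM and its TPN libraries 142.4, 153.3 and 136.2 FPKM at 24 h, ranges that overlapped (log2 fold change 0.06, 95% confidence interval -0.01 to 0.14). At 144 h they held 280.0, 274.5 and 279.5 FPKM without TPN and 231.0, 236.4 and 229.0 FPKM with TPN. The groups were separated, but by only -0.26 on the log2 scale (SE 0.04, adjusted p = 4.05e-05), and CCN2 was not called.

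AMOTL2, a junction protein of the angiomotin family that binds YAP and is itself a YAP target, was at 5.78, 5.75 and 6.13 FPKM in untreated spheroids and at 4.86, 4.94 and 4.72 FPKM with TPN at 24 h. The groups were separated below the fold threshold (log2 fold change -0.28, adjusted p = 0.00470). At 144 h it was at 5.17, 5.39 and 5.23 FPKM without TPN and at 2.82, 2.93 and 2.81 FPKM with TPN. It fell 1.82-fold (log2 fold change -0.86, SE 0.05, adjusted p = 2.32e-08), and the TPN group at 144 h was the lowest of the 4.

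Whether the response to TPN differed between the exposure times was tested as the difference between the 144 h and 24 h log2 fold changes. All 9 members passed an adjusted p of 0.05 in this test, 4 with a positive and 5 with a negative difference, as did 30.4% of all genes (14.1% and 16.3%), and 4 also passed the fold threshold, where 5.87% of all genes did (4.20% higher and 1.66% lower). TGFB1 had the more positive response at 144 h, by 0.68 (adjusted p = 7.16e-06). The response was more negative at 144 h for TGFBI, with a difference of -0.68 (adjusted p = 1.27e-07), for ANKRD1 with a difference of -0.63 (adjusted p = 0.0145), and for AMOTL2 with a difference of -0.58 (adjusted p = 9.51e-05). The calls of the last 2 rest on the fold threshold: without TPN 24 h replicate 2 they were -0.51 and -0.57, without TPN 144 h replicate 3 they were -0.47 and -0.57, and AMOTL2 also fell below the threshold without each of 4 other libraries and, at -0.46, with a pseudocount of 1. TGIF1, SKIL and THBS1 differed in the positive direction by 0.38, 0.38 and 0.49, and CCN1 and CCN2 in the negative direction by -0.46 and -0.32. For SKIL the positive sign stands for a smaller decrease at 144 h than at 24 h.

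The change with culture time was compared in the untreated and in the TPN-exposed spheroids, which share their libraries with the comparisons above. Over all genes the median log2 fold change from 24 h to 144 h was -0.18 in both, and scaling the libraries by median ratios brought it to -0.01 in both, so single changes are best read against that shift. In untreated spheroids, 5 members were called, 4 higher and 1 lower, against 19.0% of all genes (6.80% higher and 12.2% lower). With median ratio scaling 1232 of 1865 calls over all genes were higher. With adjusted p alone, 8 members passed, 6 higher and 2 lower, against 72.6% (20.1% and 52.4%), of which CCN1 (adjusted p = 0.0407) missed it with a replicate block (0.0570) and in 6 other alternatives (up to 0.189) and AMOTL2 (0.0174) in 4 alternatives (up to 0.798), and the libraries of 7 members did not overlap between the times, as for 74.9% of all genes. CCN2 rose 2.02-fold (log2 fold change 1.01, adjusted p = 3.12e-11), ANKRD1 by 0.75 on the log2 scale, and TGFBI and TGIF1 each by 0.64. THBS1 fell 2.21-fold (log2 fold change -1.14, adjusted p = 4.46e-09). TGFB1 was 0.23 higher and CCN1 0.18 higher on the log2 scale (up to 0.40 and 0.35 in the alternatives). AMOTL2 was at -0.16, which became 0.02 with median ratio scaling. SKIL was at 0.05, but it passed at 0.22 with median ratio scaling (adjusted p = 0.00970) and at 0.17 with quantile normalization (0.0377).

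In TPN-exposed spheroids, 5 members were called over the same interval, 3 higher and 2 lower, against 26.7% of all genes (9.51% higher and 17.2% lower). With median ratio scaling 1634 of 2723 calls over all genes were higher, and SKIL was also called higher (0.60). With adjusted p alone, 7 members passed, 4 higher and 3 lower, against 76.2% (24.2% and 52.0%), of which CCN1 missed it with median ratio scaling (-0.28 to -0.10, adjusted p = 0.211), and the libraries of 7 members did not overlap, as for 77.9% of all genes. TGIF1 rose 2.02-fold (log2 fold change 1.01), TGFB1 1.87-fold (0.90) and CCN2 1.61-fold (0.69), with adjusted p of at most 2.34e-09. AMOTL2 had a log2 fold change of -0.74 and THBS1 of -0.65, which median ratio scaling moved to -0.57 and -0.48, short of the fold threshold, and THBS1 was also short of it with quantile normalization (-0.55) and with a pseudocount of 1, at -0.577. With TPN, ANKRD1 was at 0.12 (adjusted p = 0.403), which became 0.29 with median ratio scaling and 0.27 without TPN 144 h replicate 3, values that passed (adjusted p = 0.0492 and 0.0286). TGFBI was at -0.05 (adjusted p = 0.127), and it passed at -0.07 with libraries scaled to the same total (0.0220), at 0.13 with median ratio scaling (0.00147) and at 0.07 with quantile normalization (0.0254). The difference between the 2 time courses is the same quantity as the difference between the TPN responses given above.

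**Figure D3:**
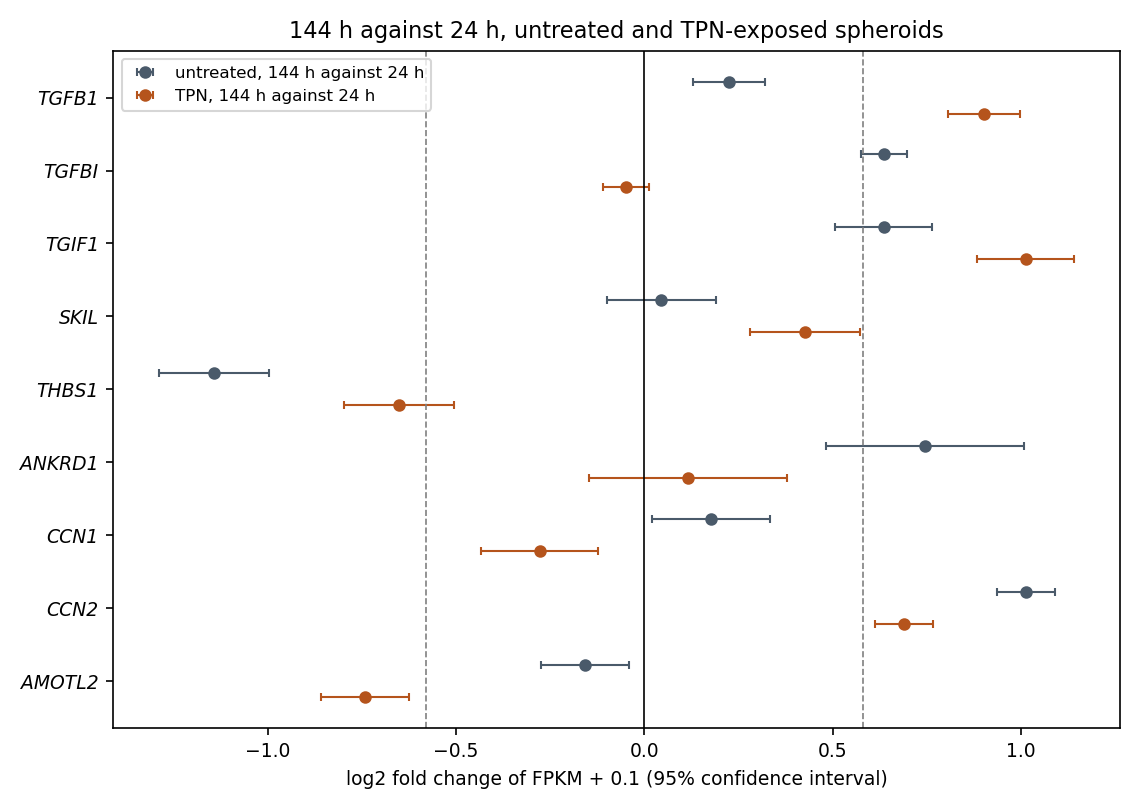
Log2 fold change of FPKM + 0.1 (horizontal axis) from 24 h to 144 h in untreated and in TPN-exposed spheroids, with points for the estimate, lines for the 95% confidence interval and dashed lines at 0.58 in either direction. TGFBI is at 0.64 in untreated and at -0.05 in TPN-exposed spheroids (0.13 with median ratio scaling), and THBS1 is below 0 in both (-1.14 and -0.65).

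The other parts of the TGF-beta pathway were counted from lists, chosen like the members with earlier results of these data known. Of 11 further ligand and latency genes, 3 were expressed enough to be tested, and TGFB2 and TGFB3 were at most at 0.06 and 0.413 FPKM on average in any group, far below TGFB1. FURIN, the protease that cleaves the TGF-beta precursor, fell at 24 h (log2 fold change -0.64) and at 144 h (-0.72), and ITGAV, a subunit of the integrins that activate latent TGF-beta, rose at 144 h (0.70) after 0.01 at 24 h. Of the receptors, 5 of 6 were tested, with 0 called at 24 h by limma (1 at an unadjusted p under 0.05). At 144 h the co-receptor ENG was called higher (0.71, but 0.54 and not called with a pseudocount of 1), while the signalling receptors TGFBR1 and TGFBR2 were at -0.41 and 0.22. Of 10 tested SMADs and inhibitors, SMAD7, the inhibitory SMAD that TGF-beta itself induces, was the 1 gene called at each time, lower at 24 h (-0.68) and at 144 h (-0.84). Over all genes 0.914% were called at 24 h and 9.48% at 144 h, so 1 gene of a list this short is near the background at 144 h.

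Among 19 tested other TGF-beta targets, 1 was called at 24 h and 10 at 144 h, 6 higher and 4 lower (7 with a pseudocount of 1, 5 higher and 2 lower), where 0.914% and 9.48% of all genes were called, with a list median of 0.18 against -0.02 for all genes. The 4 with the largest increases at 144 h were IGFBP3, an insulin-like growth factor binding protein (log2 fold change 1.56), the cyclin-dependent kinase inhibitors CDKN2B (1.22) and CDKN1A (1.08), and SNAI1, a transcription factor of epithelial to mesenchymal transition (0.87). The 4 that fell were COL1A1 (-1.25), COL1A2 (-1.07), COL4A1 (-0.84) and SMAD7 (-0.84), of which the collagens COL1A2 and COL4A1 were below 0.3 FPKM at 144 h. The lists share genes: SMAD7, also the gene called here at 24 h, is in the SMAD list above. COL1A1 and COL1A2 are counted again below among the stellate cell markers that fell. With a pseudocount of 1 the low-level COL1A2 and COL4A1 were at -0.23 and -0.20 and were not called. FN1, fibronectin, had a value of 0.48 and was not called. In the KEGG annotation of the table, 64 of 90 TGF-beta pathway genes were tested. At 24 h, 0 of these were called higher (3 at an unadjusted p under 0.05 by limma) and 5 lower, namely ID1, ID2, ID3, SMAD7 and HAMP, all of them known BMP or SMAD targets, and at 144 h 5 were higher and 7 lower, again against 0.914% and 9.48% of all genes. Those higher at 144 h were TGFB1, TGIF1, CDKN2B, BMP6 and NBL1, so 2 of the 5 are members. The list medians were -0.05 at both times.

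The Hippo pathway genes themselves were counted next. Of 20 tested kinases, cofactors and TEADs, 0 were called at 24 h (4 at an unadjusted p under 0.05 by limma, all lower) and 1 at 144 h, where 0.914% and 9.48% of all genes were called. With adjusted p alone, 15 of the 20 passed at 144 h, 9 higher and 6 lower, against 52.5% of all genes. YAP1 had log2 fold changes of -0.02 and 0.12 at 24 h and 144 h, WWTR1 of -0.15 and 0.25, and TEAD4 of -0.16 and -0.34, while the LIM protein AJUBA, which binds LATS kinases, fell at 144 h (-0.84). Of 13 other YAP targets tested, 0 were called at 24 h (3 at an unadjusted p under 0.05 by limma) and 1 at 144 h, IGFBP3, which is also in the TGF-beta list, a share near the 9.48% of all genes. With adjusted p alone, 10 of the 13 passed at 144 h, 5 higher and 5 lower. The receptor kinase AXL had the next highest value (0.50), and the kinase NUAK2 (-0.46) and ARHGEF17 (-0.40) had the lowest. The list median at 144 h was 0.07. Of the 5 members known as YAP targets, ANKRD1 was at -1.91, CCN1 at -0.73, CCN2 at -0.26, AMOTL2 at -0.86 and THBS1 at 0.33. In the KEGG Hippo annotation, 3 of 109 tested genes were called at 24 h, all lower, against 0.914% of all genes (0.273% lower). At 144 h 12 were called, 7 higher and 5 lower, with TGFB1 among those higher. The 12 of 109 are near the 9.48% of all genes called at 144 h.

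Genes of the actin cytoskeleton that respond to SRF are known, like YAP, to react to cell tension. Of 12 tested, 0 were called at 24 h and 0 at 144 h, where 0.914% and 9.48% of all genes were called. At an unadjusted p under 0.05 by limma there were 5 and 10, with values at 144 h from -0.29 to 0.49. With adjusted p alone, 4 of these genes were higher and 6 lower at 144 h, against 24.2% and 28.3% of all genes. Of 13 tested immediate early genes, 0 were called at 24 h (4 at an unadjusted p under 0.05 by limma). At 144 h 2 were called, EGR1 (1.48) and FOSL1 (1.14), both higher, against 5.75% of all genes called higher, with a list median of 0.26. With adjusted p alone, 8 of the 13 were higher and 0 lower at 144 h by limma. Of the relatives of the members, 6 of 16 in the table were expressed enough to be tested. The thrombospondins THBS2 (-1.33, or -0.50 and not called with a pseudocount of 1) and COMP (-1.51) fell at 144 h, THBS1 being at 0.33, and the co-repressors SKI and TGIF2 were at -0.23 and -0.35.

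**Figure D4:**
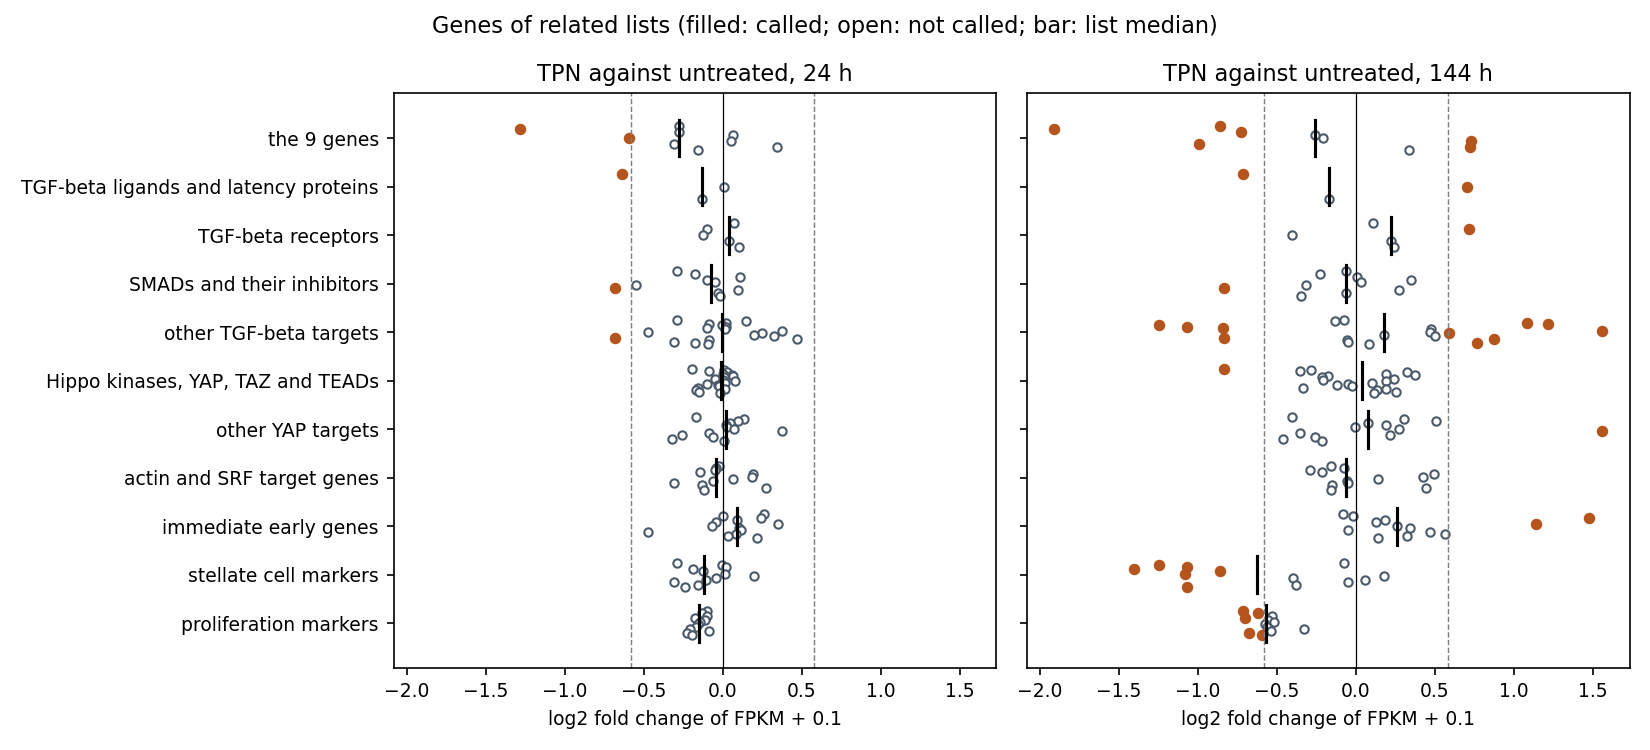
Log2 fold change of FPKM + 0.1 (horizontal axes) for TPN against untreated spheroids at 24 h and 144 h, with 1 point per tested gene, filled where called, a bar at each list's median and dashed lines at 0.58 in either direction. At 144 h, 4 of the 9 genes (top row) are filled below -0.58 and 2 above 0.58, and among the other YAP targets, with a median of 0.07, IGFBP3 is the only filled point.

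Markers of the 2 cell lines moved with time and treatment, and their part in the results was not tested. Of 15 stellate cell markers, 12 were tested, and DES, POSTN and LUM had group means of at most 0.217 FPKM. From 24 h to 144 h in untreated spheroids 9 fell and 1 rose, against 12.2% and 6.80% of all genes, with a median log2 fold change of -2.05 (-2.89 with TPN) against -0.18 for all genes, and COL1A1 went from 15.1 to 1.92 FPKM and VIM from 15.6 to 2.44 FPKM. With TPN at 24 h, 0 were called (3 at an unadjusted p under 0.05 by limma), and at 144 h 6 fell, against 3.73% of all genes, and 0 rose (1 at an unadjusted p under 0.05 by limma), COL3A1 (-1.40), COL1A1 (-1.25), COL6A3 (-1.08) and VIM (-1.07) among them, and with a pseudocount of 1 the 6 became 2, COL1A1 and VIM. The summed FPKM of the list was 200.6 to 206.7 in untreated and 191.9 to 196.5 in TPN-exposed spheroids at 24 h, and 218.5 to 229.2 and 237.0 to 239.3 at 144 h, since ACTA2 (45.4 to 57.8 FPKM on average) and LOX (56.6 to 165.6 FPKM) made up most of it.

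Of 12 hepatocyte markers, 0 were called at 24 h (7 at an unadjusted p under 0.05 by limma, all lower). At 144 h 2 fell, ALB (-0.65) and TF (-0.59), against 3.73% of all genes called lower. The summed FPKM of the 12 markers was 16820 to 17271 in untreated and 15746 to 15897 in TPN-exposed spheroids at 24 h, and 20449 to 21741 and 17121 to 18343 at 144 h. The 5 endothelial markers summed to at most 0.53 FPKM in any library. Of 12 proliferation markers, 0 were called at 24 h (12 at an unadjusted p under 0.05 by limma, all lower). At 144 h 5 fell, against 3.73% of all genes, and all 12 were lower by adjusted p, against 28.3%. Their summed FPKM was 1278 to 1289 and 1134 to 1146 at 24 h, and 797 to 818 and 550.0 to 574 at 144 h, without and with TPN.

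**Figure D5:**
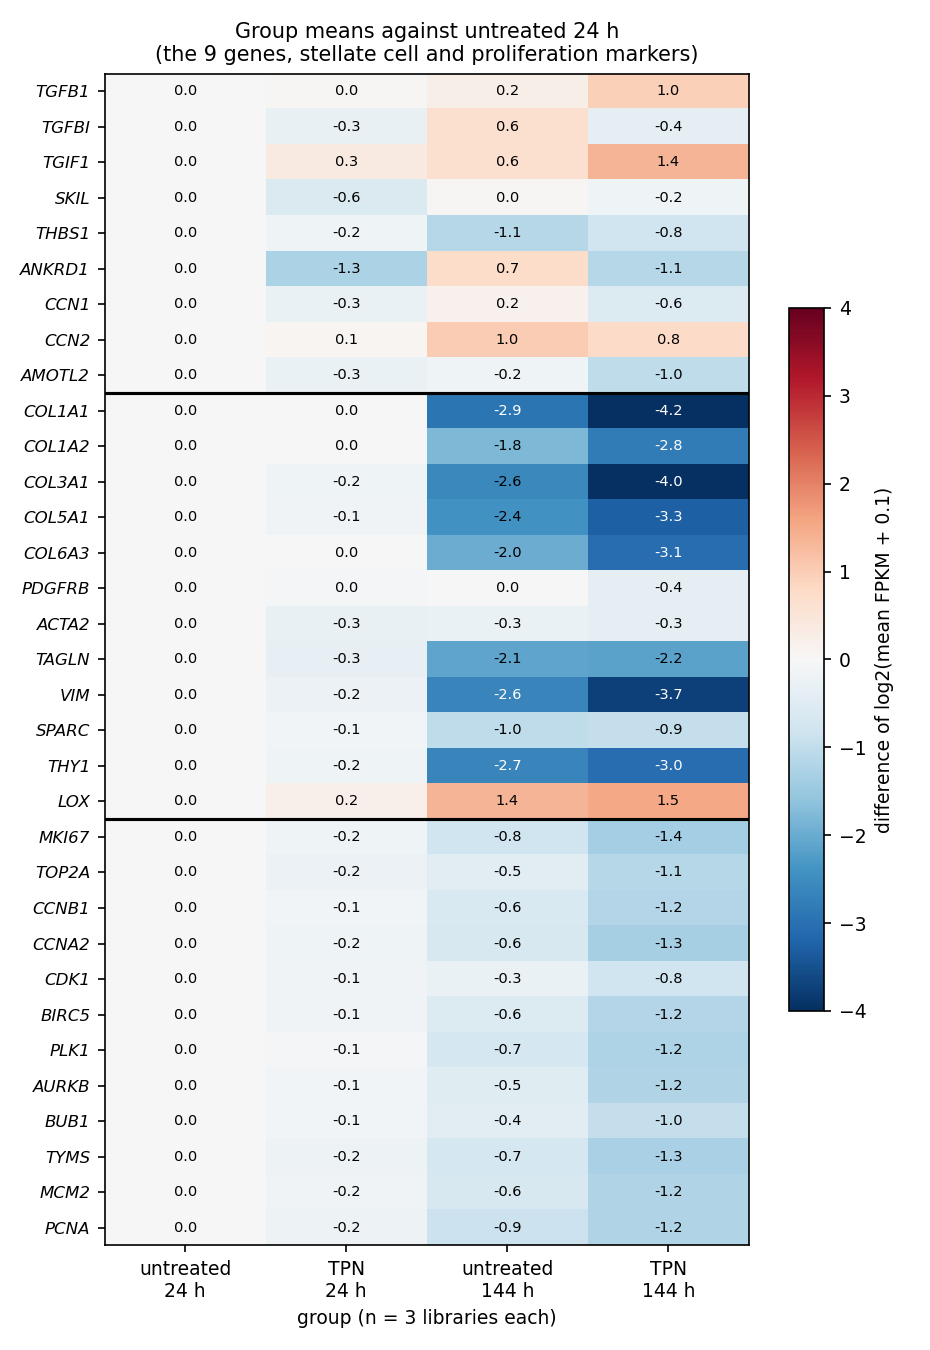
Difference of log2(mean FPKM + 0.1) from untreated spheroids at 24 h (colour and printed value) for the 9 genes (top), the tested stellate cell markers (middle) and the proliferation markers (bottom) in the 4 groups (columns, n = 3 each). The collagens and VIM are lowest after 144 h of TPN, while among the 9 genes TGFB1 and TGIF1 are highest there.

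The genes with the most similar pattern to each member were taken as those with the smallest root mean square difference of log2 values, each centred on its mean, over the 12 libraries and 11064 genes. For TGFB1 these were FAM135A (0.07) and SOWAHC (0.08), for TGFBI AJUBA (0.08) and GPC6 (0.09), for TGIF1 SMOX (0.07) and CACNA2D4 (0.10), and for AMOTL2 NOTUM (0.05) and DUSP9 (0.06). SKIL was closest to BMF (0.07) and ZNF670 (0.10), THBS1 to SLC37A2 (0.09) and KREMEN1 (0.09), CCN1 to SERPINA5 (0.09) and ZNF764 (0.10), and CCN2 to BPIFB2 (0.07) and TAF1D (0.07). The genes closest to ANKRD1 were farther away, namely SULT1E1 (0.38) and FSTL3 (0.43). Among the members themselves, TGFB1 and TGIF1 were the most alike (0.18), followed by TGFBI and CCN1 (0.21) and by CCN1 and AMOTL2 (0.22), and ANKRD1 and TGIF1 were the least alike (1.12).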

How the data were processed

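RNA was extracted from C3A and LX-2 co-culture spheroids, and strand-specific libraries were sequenced on the DNBSEQ platform. The authors aligned reads to GRCh38.p13 with HISAT2 2.0.4 and to transcripts with Bowtie2 2.2.5, per the submitters' processing notes, and the deposited values are FPKM computed by the authors with RSEM, rounded to 2 decimals. FPKM is relative to each library's total, so a change in abundant RNAs shifts all other genes. Read counts were not used here, and the study's count-based test was replaced by limma.

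The 11713 genes averaging 0.5 FPKM or more across the 12 libraries entered limma 3.58.1 (R 4.3.3) on the log2(FPKM + 0.1) scale, 4 groups in 1 model, eBayes with an intensity trend and Benjamini-Hochberg adjustment over all genes. Fold changes are on this scale, which understates changes of low genes. Calls needed an adjusted p below 0.05 and a log2 fold change beyond 0.58. Of 306 low values in 38 genes with 1 transcript, 94.1% were within 0.15 of a whole multiple of 1 fragment, which gave the depth. The fit was tested on simulated data of 11713 genes, with a log2 change of 1 in either direction in 200 of them. In the 144 h comparison 193 of the 200 were called, along with 0 others. In the difference between the responses 178 of 200 were called, along with 4 others. Smaller changes, such as those near the fold threshold, were not simulated. Promoters are from RefSeq.

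The members and lists were chosen with earlier results of these data known. Named were all members, at most 4 called genes per list and direction, genes needed to read a member, and the 2 genes most alike. Alternatives changed the pseudocount, filter, scaling, trend, libraries and threshold, added a replicate block, and left out each library. Tables were made with pandas 2.3.3 under Python 3.11.15, depth estimates with scipy 1.17.1 and figures with matplotlib 3.10.9.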

Additional observations from a re-analysis of the deposited data

Results flagged for a closer look

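For all 9 members, the log2 fold change of TPN against untreated spheroids differed between 144 h and 24 h in the test of that difference (limma, adjusted over 11713 genes, 30.4% of which passed). The difference was positive for TGFB1 (0.68), THBS1 (0.49), TGIF1 (0.38) and SKIL (0.38). It was negative for TGFBI (-0.68), ANKRD1 (-0.63), AMOTL2 (-0.58), CCN1 (-0.46) and CCN2 (-0.32). THBS1 and CCN2 had estimates of opposite sign at the 2 times, but the 24 h value of neither passed the test.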

How the results depend on the processing

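The 45 single values of the members had 971 alternative values, many of them from the same refit and so not independent. Of these, 950 kept their direction and whether the gene was called, 17 lost the call, 1 gained it and 3 reversed. The adjusted p alone crossed 0.05 for 27 of the alternative values, of CCN1, SKIL, AMOTL2, TGFBI and ANKRD1. The reversals were AMOTL2 in untreated spheroids over time, at 0.017 with median ratio scaling, and TGFBI in TPN-exposed spheroids over time, at 0.13 with median ratio scaling and 0.072 with quantile normalization. At 24 h of TPN, 1 member (ANKRD1) was called with a pseudocount of 1, with a mean FPKM of at least 5 (SKIL and AMOTL2 were then not tested) and with quantile normalization, and 6 with no fold threshold. With no fold threshold, 9 members were called for the difference between the TPN responses and 8 for untreated spheroids over time. Leaving out each library gave 1 to 2 called members at 24 h of TPN and 2 to 4 for the difference between the responses. SKIL passed the fold threshold over time with TPN only with median ratio scaling (0.60). The difference between the responses has no fit on fewer groups.

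The median ratio and quantile scalings changed the split over all genes: 796 of 2230 calls in untreated spheroids over time were higher, against 1232 of 1865 and 1064 of 1843, and 1114 of 3123 with TPN, against 1634 of 2723 and 1394 of 2784. Deviations from the group means correlated at -0.08 to 0.15 between libraries of the same replicate number and at -0.16 to 0.08 between those of different numbers. Whether the numbers pair the samples was not tested. With a replicate block the called members stayed at 2, 6, 4, 5 and 5 in the 5 comparisons, with 1108 of all genes called at 144 h against 1110 without the block. The lowest member levels rest on about 80.8 fragments per library (ANKRD1).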
